A study of Mus musculus with 6 samples.

Results

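The genes described here handle zinc, copper and iron in the mouse colon. They were chosen by symbol, with earlier results of these data known. The choice took the zinc transporter families Slc30a and Slc39a, the metallothioneins Mt1 to Mt4, and a set of named copper and iron transporters, reductases, oxidases, receptors and ferritin chains. The choice found 40 of the 19844 genes measured, and 32 of them reached 1 FPKM (fragments scaled to transcript length and library size) in at least 3 of the 6 libraries and were tested. Distal colon of C57BL6 mice was profiled by poly-A RNA sequencing on day 17 of a course of AOM/DSS, the carcinogen azoxymethane followed by the colitis-inducing polymer dextran sulfate sodium. All 6 mice had that treatment, in 2 genotype groups of 3, wild type and knockout of ChREBP. ChREBP, the product of Mlxipl, is a transcription factor that responds to sugar. Ages, the deleted part of Mlxipl and the cells in which it was deleted are not given in the labels. By its title the study concerns ChREBP in colorectal carcinogenesis, and its 1 comparison is knockout against wild type.

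The labels call all 6 mice female, but the Y-linked genes Ddx3y, Uty, Kdm5d and Eif2s3y were between 5.67 and 30.75 FPKM in every library and Xist was between 0.02 and 0.04. Mlxipl itself averaged 6.87 ± 0.896 FPKM in the wild-type libraries and 4.70 ± 1.17 in those labelled knockout (mean ± SD, n = 3 each, as throughout). Its groups did not overlap, with knockout values up to 5.66 and wild-type values from 5.84. The log2 fold change was -0.48 (limma unadjusted p = 0.026, adjusted p = 0.9995). A value per gene does not show whether the deleted part was read. Depth, estimated from short genes, was between 17600000 and 18437500 reads per library. Epithelial markers, 7 of 7 tested, summed to between 4968 and 5521 FPKM in wild type and between 5138 and 5963 in knockout. All 8 surface colonocyte markers passed the filter too.

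Metals cannot be made or destroyed by a cell, so their level is set by transport, storage and release. Slc39a proteins (ZIPs) move zinc into the cytosol, Slc30a proteins (ZnTs) move it out or into vesicles, and metallothioneins bind zinc and copper in the cytosol. Metallothionein genes and Slc30a1 are induced by zinc through the transcription factor MTF1, which binds metal response elements in their promoters. Iron enters cells through Slc11a2 (DMT1) and the transferrin receptor Tfrc, is stored in ferritin and leaves through ferroportin, Slc40a1. Iron regulatory proteins stabilise Tfrc mRNA when cell iron is low and block ferritin translation, so ferritin mRNA levels need not follow ferritin protein.

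The promoters of the classical zinc-induced genes are shown because their metal response elements are the known route from zinc to these transcripts. The sequences are the 250 bases upstream of the RefSeq transcript start in build GRCm38.p6, all on the plus strand: Mt1 at chr8:94178839-94179088, Mt2 at chr8:94172368-94172617 and Slc30a1 at chr1:191906531-191906780. They are read 5′ to 3′ and capitals mark matches to the core of the metal response element, searched as TGCACNC or TGCGCNC on both strands.
Mt1: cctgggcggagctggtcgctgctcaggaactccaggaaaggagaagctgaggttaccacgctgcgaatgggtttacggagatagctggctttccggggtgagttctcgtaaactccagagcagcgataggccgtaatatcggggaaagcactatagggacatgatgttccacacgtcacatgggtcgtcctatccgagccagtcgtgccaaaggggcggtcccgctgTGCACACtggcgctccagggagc
Mt2: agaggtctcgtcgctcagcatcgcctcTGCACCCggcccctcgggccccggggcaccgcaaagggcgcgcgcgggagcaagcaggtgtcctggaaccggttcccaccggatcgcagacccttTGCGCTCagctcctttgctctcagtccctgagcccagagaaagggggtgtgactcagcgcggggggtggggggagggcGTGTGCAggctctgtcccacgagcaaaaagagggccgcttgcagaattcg
Slc30a1: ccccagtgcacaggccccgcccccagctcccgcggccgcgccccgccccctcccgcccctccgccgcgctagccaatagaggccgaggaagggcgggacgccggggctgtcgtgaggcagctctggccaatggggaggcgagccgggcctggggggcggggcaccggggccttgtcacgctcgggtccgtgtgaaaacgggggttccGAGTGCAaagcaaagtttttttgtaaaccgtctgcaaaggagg

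Windows of 300 bases, reaching 50 bases past the start, held 3 core matches for Mt1, 4 for Mt2 and 2 for Slc30a1. Those past the annotated start are outside the printed stretches: at bases 3 to 9 and 21 to 27 for Mt1, 5 to 11 for Mt2 and 31 to 37 for Slc30a1. The annotated starts were not checked against where transcription began in these libraries. A match past an annotated start may thus lie upstream of the start in use, and further elements may lie outside the windows. Of all 32851 windows in the RefSeq table, 25.7% held at least 1 core match and 1.97% held 3 or more, counting overlapping matches separately. By gene, 19 of the 33 members with a window held a match, 57.6%, against 28.2% of all 27025 genes. These 27025 are all genes with a window, with no filter on expression or gene type. The shares here and below thus set unlike sets side by side, and no test was made. The matches describe letters and do not show that MTF1 binds there. The E-box CACGTG, which resembles the half-sites of the carbohydrate response element bound by ChREBP, lay in windows of 5 of the 33 members (Atp7a, Slc30a5, Slc31a2, Slc39a8 and Slc39a11), 15.2% against 8.09% of all genes. None of the windows of Mt1, Mt2 or Slc30a1 held it. The antioxidant response element, searched as TGACNNNGC, lay in windows of 8 members, 24.2% against 14% of all genes. The members with no window were Heph, Slc11a2, Slc30a8, Slc39a14, Slc39a4, Slc39a6 and Slc40a1.

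**Figure D1:**
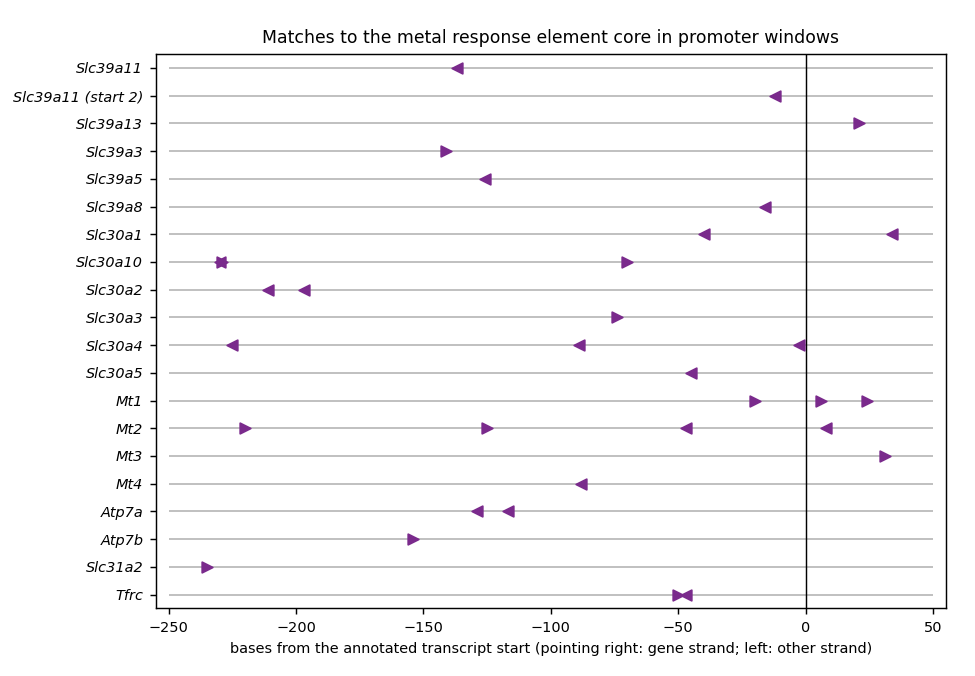
Positions of matches to the metal response element core in the promoter windows of members with at least 1 match. The x axis is the distance in bases from the annotated transcript start, each row is 1 window, and triangles point right for the gene's strand and left for the other. Mt2 has 4 matches, and Mt1, Slc30a4 and Slc30a10 have 3 each, among 20 windows with a match.

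No metal handling gene differed between genotypes by the test over all genes. Of the 32 tested members 0 were called (limma adjusted p = 0.9995 for each of them), as against 2 of 13247 genes, 0.0151%, in the whole table. The members' log2 fold changes (knockout minus wild type, from log2 of FPKM + 1) were positive for 10 and negative for 22, with a median of -0.05 against 0.01 over all genes tested, of which 6984 were positive and 6258 negative. Without wild-type replicate 3 the members split into 15 positive and 17 negative with a median of -0.02, and without knockout replicate 2 or 3 the median was -0.09. For all 32 the 95% interval lay within 2-fold in either direction on that scale, as it did for 96.97% of all genes. The added 1 makes fold changes of low genes too small. At an unadjusted p under 0.05 there were 3 members, Tfrc, Slc39a14 and Mt3, where 3.4% of all genes met that mark. Groups did not overlap in 6 members (18.8%, against 8.67% of all genes). Of these, 4 were lower in knockout (Tfrc, Cybrd1, Slc39a14 and Slc30a1), where 4.14% of all genes were, and 2 were higher (Slc39a4 and Mt3), where 4.53% were. Without knockout replicate 1 the groups of 13 members were separate, and without wild-type replicate 2 or knockout replicate 2 those of 10, when 16.1% to 22.4% of all genes were over the 6 omissions. All members that are named below as higher or lower are so described from their values alone.

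**Figure D2:**
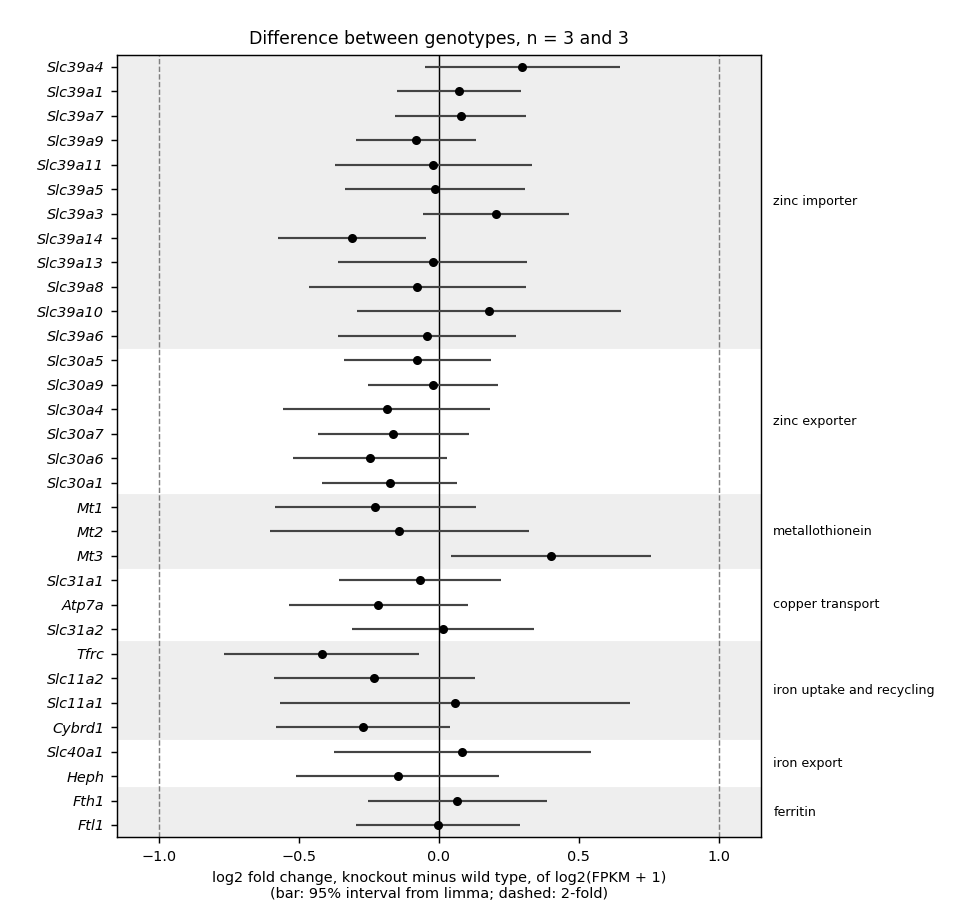
Difference in mean log2(FPKM + 1), knockout minus wild type, for the 32 tested members, grouped by role. Points are limma estimates, bars their 95% intervals and dashed lines mark 2-fold. No interval reaches 2-fold, and the intervals of Tfrc, Slc39a14 and Mt3 leave out 0 before adjustment over all genes.

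Genes of iron uptake and recycling had the lowest median log2 fold change of the roles, -0.25, with 3 of 4 negative. Their summed level was 58.7 ± 6.16 FPKM in wild type and 45.7 ± 1.92 in knockout, most of it from Tfrc. Tfrc (NCBI gene 22042), the receptor that takes up transferrin-bound iron, read 34.56, 45.93 and 30.83 FPKM in wild-type replicates 1 to 3 and 28.09, 24.63 and 28.85 in the knockouts. Every knockout library was below every wild-type library, by 1.98 FPKM at the nearest, and the wild-type spread came mostly from replicate 2. The means were 37.1 ± 7.87 and 27.2 ± 2.25 (log2 fold change -0.42, SE 0.15, 95% interval -0.77 to -0.07, limma adjusted p = 0.9995), and without wild-type replicate 2 the log2 fold change was -0.26. In whole tissue, fewer cells that carry a transcript and less of it per cell cannot be told apart. B cell genes were likewise highest in wild-type replicate 2, with Cd79a at 59.75 FPKM there and between 11.23 and 42.15 elsewhere. All 7 lymphocyte markers were tested. None was called, and they summed to between 380 and 394 FPKM in wild type and between 158 and 431 in knockout. Their part in the Tfrc difference was not tested.

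Cybrd1 (NCBI gene 73649), a membrane reductase that turns ferric into ferrous iron for uptake, read 2.89, 2.35 and 2.03 FPKM in wild type and 1.71, 1.80 and 1.96 in knockout. The nearest values of the groups were 0.07 FPKM apart, less than the SD of 0.435 in wild type. The means were 2.42 ± 0.435 and 1.82 ± 0.127. Its log2 fold change was -0.27 (SE 0.13, 95% interval -0.58 to 0.04). Slc11a2, the divalent metal transporter that carries ferrous iron into the cytosol, read 14.32, 14.94 and 20.85 in wild type against 12.35, 14.18 and 15.32 in knockout. Wild-type replicate 3 was high and the other values overlapped. The means were 16.7 ± 3.60 and 13.95 ± 1.498 (95% interval of the log2 fold change -0.59 to 0.13).

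Slc11a1 (NRAMP1), which moves iron and manganese out of the phagosomes of macrophages and neutrophils, stood at 2.11, 2.38 and 2.76 FPKM in wild type and 1.91, 4.67 and 1.70 in knockout. Knockout replicate 2 was the only high library, and without it the sign of the difference turned (log2 fold change 0.06 with all libraries and -0.28 without it). The sum of macrophage and monocyte markers, 8 of 9 tested and none at 0, was also highest there. It was 532 FPKM against 311 and 325 in the other knockouts and 350 to 489 in wild type. Adgre1, Cd68 and Csf1r were instead highest in wild-type replicate 3, and the other markers of the list in knockout replicate 2. Their part in the Slc11a1 value was not tested.

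Iron export genes varied more among the knockouts than between the groups. Slc40a1, ferroportin, the sole known iron exporter of animal cells, read 64.66, 57.01 and 63.07 FPKM in wild type and 47.67, 66.33 and 87.75 in knockout. The knockout libraries thus lay below, within and above the wild-type range, with a coefficient of variation of 29.8% against 6.56% in wild type. The haem and folate transporter gene Slc46a1 was ordered alike among the knockouts, at 17.29, 30.57 and 39.31 FPKM. In wild type it read 20.76, 23.58 and 33.05, in an order unlike that of Slc40a1. Smooth muscle markers, 7 of 7 tested, summed to 4399 FPKM in knockout replicate 3 and to between 2694 and 3683 in the other libraries. Cnn1 of that list was instead highest in wild-type replicate 2. The lowest sum, 2694 FPKM, was in wild-type replicate 1, where Slc40a1 read 64.66. Macrophage and monocyte markers summed to 325 FPKM in knockout replicate 3. The part of these cell markers in the Slc40a1 value was not tested. Heph, the copper-dependent ferroxidase hephaestin that works with ferroportin, read 31.89, 25.81 and 27.85 against 32.16, 21.27 and 24.36. Its groups overlapped (log2 fold change -0.15, SE 0.16), and the value rested on single libraries: it was -0.31 with separate groups without knockout replicate 1, -0.02 without knockout replicate 2 and -0.07 without wild-type replicate 1.

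Ferritin genes were by far the most abundant members. Fth1, the heavy chain with ferroxidase activity, was the seventh most abundant gene of the whole table, with 1886.96, 2015.86 and 1878.26 FPKM in wild type and 1783.60, 2171.66 and 2118.82 in knockout. Ftl1, the light chain that helps to form the iron core, read 1239.65, 1084.66 and 1088.24 against 1095.83, 1243.08 and 1069.33. Neither differed beyond the spread: the 95% intervals of the log2 fold changes were -0.25 to 0.39 for Fth1 and -0.30 to 0.29 for Ftl1. The ratio of Fth1 to Ftl1 FPKM lay between 1.52 and 1.98 over the 6 libraries. Both genes have processed pseudogenes with which reads may be shared, so their levels are less certain than their depth implies.

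Zinc importers held 12 tested genes of 14, with 5 positive and 7 negative fold changes. Slc39a4 (ZIP4, NCBI gene 72027), the apical transporter of dietary zinc whose loss causes acrodermatitis enteropathica, was the most abundant, with 66.33, 63.74 and 62.68 FPKM in wild type and 101.56, 72.08 and 67.77 in knockout. All 3 knockouts lay above wild type, but by 1.44 FPKM at the nearest, and the mean of 80.5 ± 18.4 against 64.25 ± 1.88 owed most to replicate 1. The log2 fold change was 0.30 (SE 0.15, 95% interval -0.05 to 0.65) and 0.12 without that library. Slc39a5, the basolateral counterpart, was instead lowest in knockout replicate 1, with 26.91, 25.82 and 27.74 against 21.16, 29.81 and 29.67. The ratio of Slc39a4 to Slc39a5 was 4.80 in that library and between 2.26 and 2.47 in the other 5.

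Slc39a14 (ZIP14, NCBI gene 213053), an inflammation-induced importer of zinc, manganese and non-transferrin iron, was lower in the knockouts. Wild type read 8.80, 8.89 and 10.70 FPKM and knockout 7.81, 6.86 and 7.58. The nearest values of the groups were 0.99 FPKM apart, which is within the wild-type SD of 1.07. The means were 9.46 ± 1.07 and 7.42 ± 0.496. The log2 fold change was -0.31 (SE 0.11, 95% interval -0.58 to -0.05, limma adjusted p = 0.9995). Its close relative Slc39a8 (ZIP8) read 8.06, 5.91 and 8.29 against 7.53, 7.90 and 5.53, with 1 low library in each group and no separation. Slc39a10, a plasma membrane importer, read 4.48, 4.77 and 3.28 in wild type and 6.81, 4.04 and 3.99 in knockout. As with Slc39a4, knockout replicate 1 was the high library, and without it the log2 fold change of 0.18 became -0.03.

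The remaining tested importers differed little. Slc39a1, a broadly expressed plasma membrane importer, averaged 60.9 ± 2.59 FPKM in wild type against 64.2 ± 5.18, and Slc39a7, which releases zinc from the endoplasmic reticulum, was at 50.1 ± 3.00 and 53.1 ± 4.74. Slc39a9 was at 37.3 ± 2.69 and 35.1 ± 1.34 and Slc39a11 at 33.7 ± 3.29 and 33.6 ± 6.84. Slc39a3 was at 8.58 ± 0.863 and 10.03 ± 0.769, with 0.03 FPKM of overlap between the groups. Slc39a13, which supports connective tissue development, was at 7.74 ± 0.645 and 7.68 ± 1.59, and Slc39a6 was at 3.36 ± 0.310 and 3.26 ± 0.570. Slc39a2 (between 0.22 and 0.72 FPKM) and Slc39a12 (between 0 and 0.10), an importer of brain, were too low to test. Summed over the family, importers came to 314 ± 4.21 FPKM in wild type and 334 ± 31.3 in knockout, where replicate 1 was highest at 365.

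**Figure D3:**
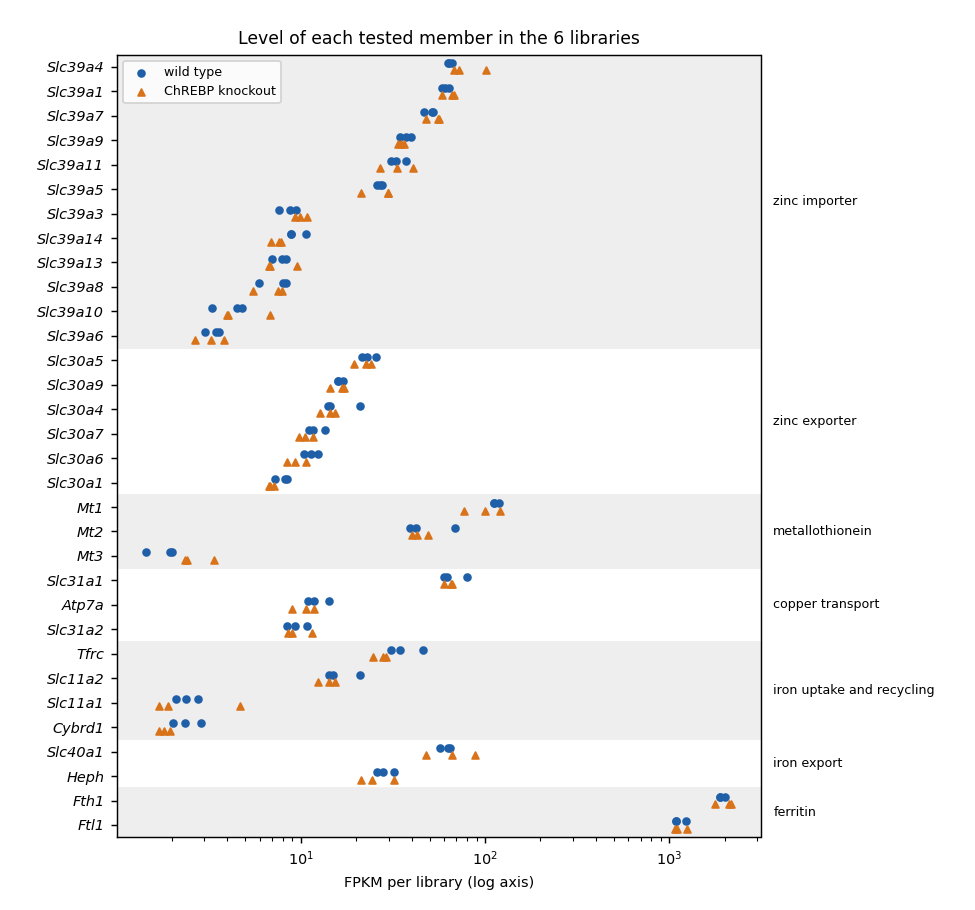
FPKM of the 32 tested members in each library on a log axis, grouped by role and ordered by level. Circles are the 3 wild-type libraries and triangles the 3 knockouts. Levels run from 1.45 FPKM for Mt3 to 2171.66 for Fth1, and the groups overlap for most members.

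Zinc exporters that passed the filter had lower values in knockout by small amounts. All 6 tested of 10 had negative fold changes, between -0.25 for Slc30a6 and -0.02 for Slc30a9, and their median was -0.17 against 0.01 over all genes, of which 6258 of 13247 were negative. With no filter 7 of all 10 exporters were negative. The 6 were negative after rescaling the libraries to equal totals or by median ratios, but without knockout replicate 2 only 4 of the 6 were negative and without wild-type replicate 1 only 5 were. Slc30a1 (ZnT1, NCBI gene 22782), the zinc-induced exporter of the plasma membrane, read 7.21, 8.17 and 8.43 FPKM in wild type and 6.73, 6.84 and 7.14 in knockout. The knockouts were lower by 0.07 FPKM at the nearest, less than the wild-type SD of 0.643. The means were 7.94 ± 0.643 and 6.90 ± 0.212 (log2 fold change -0.18, SE 0.10, 95% interval -0.42 to 0.07). Slc30a5 and Slc30a6, which pair to load zinc into enzymes of the secretory pathway, were at 23.3 ± 2.11 and 22.1 ± 2.30 and at 11.4 ± 0.955 and 9.47 ± 1.14. Slc30a7, of the same pathway, was at 12.1 ± 1.30 and 10.7 ± 0.985. Slc30a4, a vesicular transporter, was at 16.5 ± 3.88 and 14.2 ± 1.36, with wild-type replicate 3 at 20.97, and Slc30a9, of mitochondria, was at 16.3 ± 0.590 and 16.1 ± 1.46.

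The summed exporters came to 88.5 ± 4.40 FPKM in wild type and 81.1 ± 4.05 in knockout, with ranges that overlapped. Slc30a10, which in spite of its family exports manganese, read 0.59, 0.89 and 0.71 in wild type and 0.27, 1.01 and 3.12 in knockout. Knockout replicate 3 stood apart, with an estimated 328 reads against 29 to 105 in the other libraries, and the gene did not pass the filter. Slc30a2 was between 0.10 and 0.30 FPKM, Slc30a8, a transporter of pancreatic beta cells, between 0 and 0.10, and Slc30a3, of synaptic vesicles, between 0 and 0.03.

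Mt1 and Mt2, neighbours that zinc induces together, were not ordered alike over the libraries. Mt1 (NCBI gene 17748) read 111.39, 112.13 and 119.48 FPKM in wild type and 77.04, 120.45 and 99.71 in knockout. The wild-type libraries were close together and knockout replicate 1 was low, while replicate 2 was the highest of all (means 114 ± 4.47 and 99.1 ± 21.7, 95% interval of the log2 fold change -0.59 to 0.13). Mt2 (NCBI gene 17750) read 39.13, 42.45 and 68.37 against 40.32, 48.88 and 42.84. Here wild-type replicate 3 was high, and without it the log2 fold change of -0.14 became 0.10. The ratio of Mt1 to Mt2 ranged from 1.75 in wild-type replicate 3 and 1.91 in knockout replicate 1 to 2.85 in wild-type replicate 1. Slc30a1, whose promoter is printed beside theirs, was highest in wild-type replicate 3, as Mt2 was, and lowest in knockout replicate 1, as Mt1 was. The orders differed elsewhere: Slc30a1 was at 6.84 FPKM in knockout replicate 2, where Mt1 was highest, and Mt2 was lowest in wild-type replicate 1.

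Mt3 (NCBI gene 17751), a metallothionein best known from brain, read 1.96, 2.01 and 1.45 FPKM in wild type and 2.36, 2.42 and 3.37 in knockout. The knockouts lay above wild type by 0.35 FPKM at the nearest, with a log2 fold change of 0.40 (SE 0.15, 95% interval 0.04 to 0.76, limma adjusted p = 0.9995). These values correspond to an estimated 13 to 31 reads per library, so counting error is a large part of the spread. Mt4, of stratified epithelia, was between 0 and 0.76 FPKM, at most an estimated 5 reads.

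**Figure D4:**
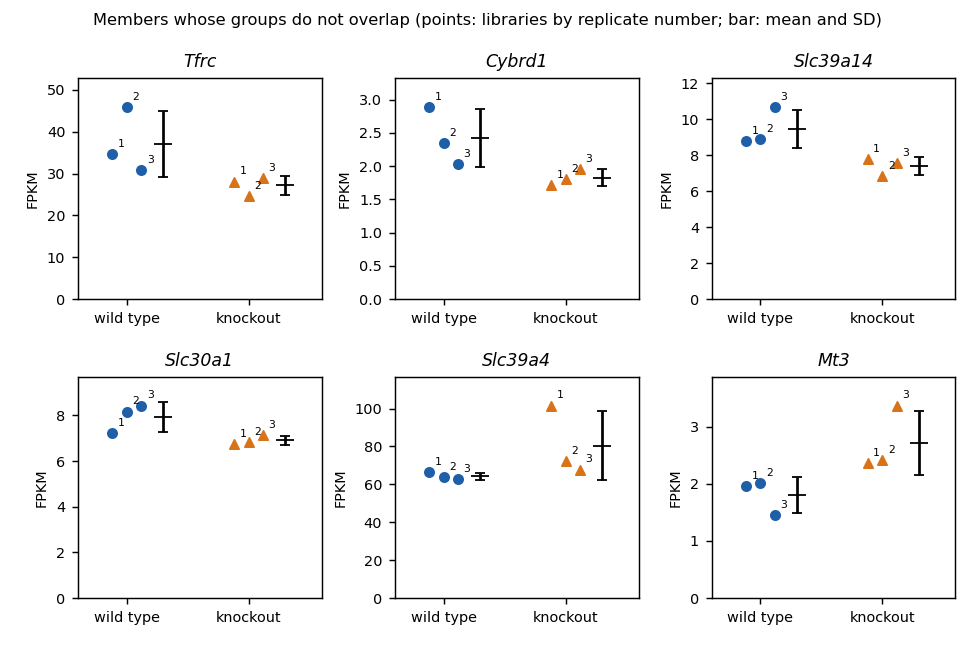
FPKM in each library of the 6 members whose wild-type and knockout values do not overlap. Points are libraries marked by replicate number, and bars are the mean and SD of 3 libraries. Tfrc, Cybrd1, Slc39a14 and Slc30a1 are lower and Slc39a4 and Mt3 higher in knockout, with gaps between the groups of 0.07 to 1.98 FPKM.

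Copper transport genes overlapped between the groups in all tested cases. Slc31a1 (CTR1), the high-affinity copper importer, read 62.27, 59.96 and 79.98 FPKM in wild type and 59.56, 66.09 and 65.67 in knockout. Atp7a, the copper pump that delivers copper to the secretory pathway and out of enterocytes, read 11.79, 10.90 and 14.24 against 11.75, 8.94 and 10.68. Both were highest in wild-type replicate 3, and their 95% intervals were -0.36 to 0.22 and -0.53 to 0.10. Slc31a2, a relative of Slc31a1, was at 9.52 ± 1.201 and 9.66 ± 1.59, and its sign turned after rescaling to equal totals. Atp7b, the paralog of Atp7a that is typical of liver, read 0.35, 0.28 and 0.16 against 0.39, 0.09 and 0.83, an estimated 10 to 97 reads.

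The members' highest and lowest values were counted by library. Wild-type replicate 3 held the highest value of 10 of the 32 tested members (31.2%, against 18.2% of all genes), among them Mt2, Slc11a2, Slc30a4, Slc31a1 and Atp7a. Macrophage and monocyte markers summed to 489 FPKM in that library, the second highest of the 6. Knockout replicate 1 held the highest value of 6 members, including Slc39a4 and Slc39a10, and the lowest of 9, including Mt1, Slc40a1 and Slc11a2 (18.8% and 28.1%, against 17.3% and 20.7% of all genes). Knockout replicate 3 likewise held the lowest value of 9 members, 28.1% against 15.6% of all genes. Knockout replicate 2 held the highest of 9 (28.1%, against 25.7% of all genes) and the lowest of 7 (21.9%, against 18.5%). Wild-type replicates 1 to 3 held the lowest of 2, 0 and 5 members. Those were 6.25%, 0% and 15.6%, against 11.4%, 11.3% and 22.6% of all genes. Each knockout library thus held the members' lowest value more often than over all genes, and each wild-type library less often. In knockout replicate 1 the neutrophil markers other than Ly6g, 4 of 7 tested, summed to 18.5 FPKM against 5.91 to 8.65 elsewhere. S100a8 and S100a9, at 6.04 and 6.55 FPKM there, were the largest parts of that sum. Csf3r was highest in knockout replicate 2 and Cxcr2 in wild-type replicate 2, and Mpo and Mmp8 did not exceed 0.16 in any library. Ly6g itself was between 165 and 233 FPKM in all libraries. With it the list summed highest in wild-type replicate 1, at 239 FPKM against 201 in knockout replicate 1. Surface colonocyte markers, 8 of 8 tested, summed to 2484 FPKM in knockout replicate 1 and to between 2570 and 3473 elsewhere, and single markers of that list differed in which library was lowest. The part of these cell markers in the members' values was not tested.

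**Figure D5:**
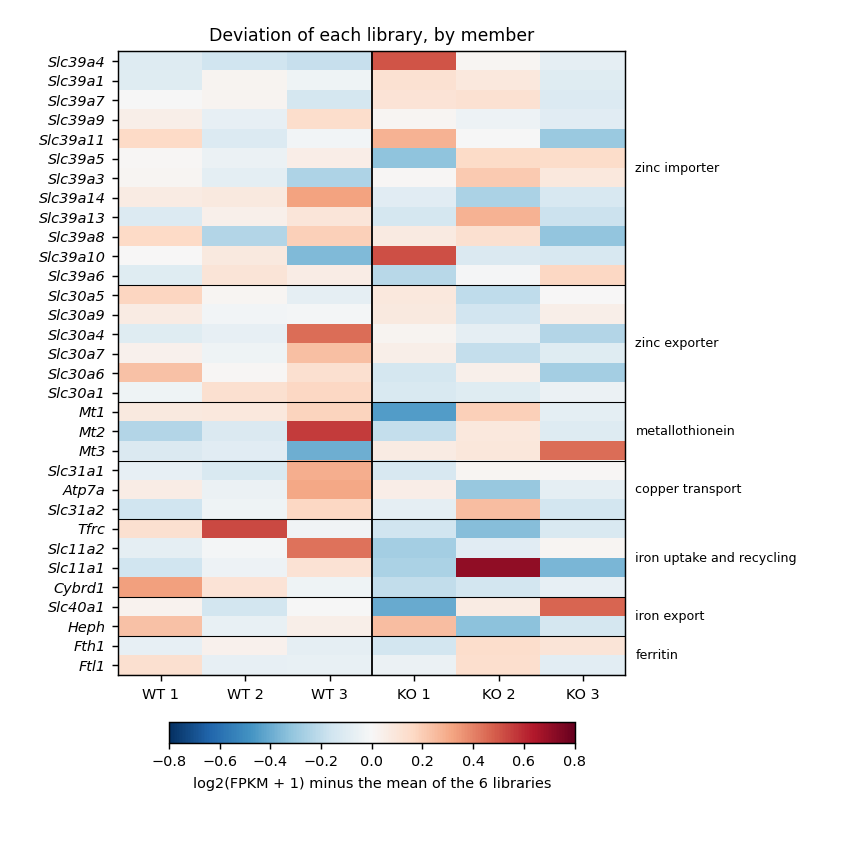
Deviation of each library from the mean of all 6, on the log2(FPKM + 1) scale, for the 32 tested members by role. Columns are libraries, WT wild type and KO knockout, and red is above and blue below the mean. The strongest cells belong to single libraries, such as Slc11a1 in KO 2, Slc39a4 and Slc39a10 in KO 1 and Mt2 in WT 3.

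Other genes of these pathways were listed apart from the members. Of 59 tested genes in 4 lists 0 were called (limma adjusted p = 0.9995 for each), and 28 had positive and 31 negative fold changes. At an unadjusted p under 0.05 there was 1, where 3.4% of all genes met that mark. Groups did not overlap in 3 of the 59, 5.08%, against 8.67% of all genes and 18.8% of the members. In zinc regulation (6 of 7 tested, 4 positive) the metal sensor Mtf1 averaged 7.41 ± 0.772 FPKM in the wild-type libraries and 6.25 ± 0.967 in the knockouts. S100a8 and S100a9, the calprotectin subunits that sequester zinc, were at 0.887 ± 0.185 and 2.68 ± 2.91 and at 1.11 ± 0.235 and 3.28 ± 2.85. Their knockout means came from replicate 1, with 6.04 and 6.55 FPKM.

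Among 17 copper genes, 9 of them positive, Atox1, the chaperone that hands copper to Atp7a, had the smallest p. It read 45.17, 45.18 and 46.58 FPKM in wild type and 51.10, 54.67 and 56.72 in knockout. The groups were separate, with wild-type values close together, and the log2 fold change was 0.24 (SE 0.09, limma adjusted p = 0.9995). Steap3, a ferrireductase, was at 21.3 ± 1.23 and 17.8 ± 2.26, also without overlap, and the extracellular superoxide dismutase Sod3, a copper and zinc enzyme, was at 33.4 ± 5.54 and 40.4 ± 3.44. Steap4, an inflammation-linked metalloreductase, was at 5.99 ± 2.03 and 9.23 ± 3.82.

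Among 18 tested iron regulation genes, 5 positive and 13 negative, the iron regulatory protein genes Aco1 (22.5 ± 2.22 and 22.5 ± 1.89 FPKM) and Ireb2 (15.8 ± 0.344 and 14.7 ± 0.424) differed by little, although the groups of Ireb2 did not overlap. The mitochondrial iron importer gene Slc25a37 was at 12.85 ± 1.04 and 11.3 ± 1.76. The hepcidin genes Hamp and Hamp2 were low. Hamp, whose liver product causes ferroportin to be degraded, was at 0.343 ± 0.299 and 0.380 ± 0.344, and Hamp2 was at 1.52 ± 0.357 and 1.14 ± 0.793. Lcn2, which captures bacterial iron carriers, was at 3.39 ± 0.311 and 3.68 ± 0.836. In 18 tested haem genes, 10 positive and 8 negative, the haem-degrading oxygenase Hmox1 was at 6.22 ± 0.0907 and 6.07 ± 0.985. The next step's enzyme Blvra was at 8.53 ± 1.07 and 10.1 ± 0.659, the first enzyme of haem synthesis Alas1 at 36.6 ± 4.71 and 29.5 ± 8.33, and Uros, a later enzyme, at 5.997 ± 0.318 and 6.69 ± 0.562.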

How the data were processed

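RNA of 6 distal colon samples was measured, 3 per genotype, grouped by the genotype label and numbered by title. Per the labels' protocols, poly-A RNA was selected and libraries were made with random primers and no strand marking is named; a gene and an antisense gene over it may therefore share reads. The authors deposited FPKM values for 19844 genes, and HISAT2, RSEM and build mm39 are named in the submitters' processing notes. Tool versions and the authors' filters: not given in the sources used here.

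The 13247 genes that reached 1 FPKM in 3 or more of the 6 libraries were kept. log2(FPKM + 1) was fitted on genotype alone with limma 3.58.1 in R 4.3.3 (mean-variance trend, two-sided), adjusted by Benjamini-Hochberg over all genes at a threshold of 0.05. Errors and intervals of fold changes are limma's. The code was tested on simulated data. Alternatives changed the pseudocount (0.1), the filter, the library scale, the trend, a replicate term, and left out each library.

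Depth was estimated from 348 non-coding genes of up to 150 bases, whose FPKM step by whole reads: with a length offset of 36 bases, 83.2% to 88.3% of 118 to 144 values per library came within 0.05 of a whole number. Reads per member are estimates from these depths and GENCODE M21 transcript lengths, and cover counting only. Promoter windows are from a RefSeq table of GRCm38.p6, matched by gene number for 33 of 40 members.

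The members and lists were chosen with earlier results of these data known. Values per library are given for a fixed set of members and for others with an unadjusted p under 0.05, separate groups or a coefficient of variation over 30% at a mean of 1 FPKM or more. Of the other lists, up to 3 genes each by smallest p were named, with Mtf1, Hmox1, Lcn2, Steap4, Hamp and Aco1. Slc46a1, Cd79a, Ly6g, Mpo, Mmp8, Adgre1, Cd68, Csf1r, Csf3r, Cxcr2 and Cnn1 were named after their values were seen. Python 3.11.15, pandas 2.3.3, numpy 2.4.6 and matplotlib 3.10.9 were used.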

Additional observations from a re-analysis of the deposited data

How the results depend on the processing

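Under 13 alternatives 0 members were called, with a smallest adjusted limma p of 0.796 (without knockout replicate 1). The count of genes called in the whole table, 2, became 0 with a filter of 1 FPKM in all libraries (432 genes at an unadjusted p under 0.05), 0 with the replicate block (504) and between 0 and 1 when single libraries were left out (323 to 807), where the 1 came from omitting wild-type replicate 1. The members whose groups did not overlap, 6 with all libraries, numbered between 6 and 13 without single libraries (10 without wild-type replicate 2, 13 without knockout replicate 1 and 10 without knockout replicate 2), where fewer samples make separation easier: 16.1% to 22.4% of all genes were then separate. The 3 members at an unadjusted p under 0.05 numbered between 2 and 4 in every alternative, but they were not always the same: without wild-type replicate 3 they were Cybrd1 and Tfrc, without knockout replicate 2 Mt1, Mt3 and Slc30a6, and without wild-type replicate 2 Mt3 and Slc39a14. With a replicate block there were 2, Slc39a14 and Tfrc, while Mt3 did not pass that mark. Same-numbered libraries deviated together with correlations of 0.27, -0.10 and 0.06 over 13247 genes, so the numbers were not taken to pair the mice, and wild-type replicate 3 correlated best with knockout replicate 2 (0.25). Over the 32 members, 18 kept their sign in all 13 alternatives, among them Tfrc (-0.54 to -0.26), Slc39a14 (-0.36 to -0.23), Cybrd1 (-0.38 to -0.18), Slc30a1 (-0.24 to -0.14), Slc39a4 (0.12 to 0.41) and Mt3 (0.28 to 0.56), and 25 of 416 values had the other sign. The cause of these changes was not tested. Counting error limits Mt3 (an estimated 13 to 31 reads) and most of the 8 members under the filter, though Slc30a10 had an estimated 29 to 328 reads.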
